A study of Arabidopsis thaliana with 4 samples.

Results

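Transcript levels in whole 2-week-old seedlings of Arabidopsis thaliana were compared between a mutant, named dko in the text, that is labelled as a knockout of TRIC1 (locus AT3G49560) and also of TRIC2 (locus AT5G24650), and wild type of the accession Col-0. Of the 34133 loci in the deposited seedling table, 19128 (56.0%) reached 1 FPKM or more in dko or wild-type seedlings, and these are the genes described. FPKM counts the sequenced fragments of a gene per kilobase of its transcript, scaled to the size of a library. The response of a gene is given as a ratio, log2((dko + 1)/(wild type + 1)) of the FPKM values, so a positive ratio means a higher level in the dko, and the change of a gene with a low level is understated. Within the 19128 genes, those with a ratio of at least 0.8 in size in seedlings and under 0.3 in size in rosette leaves were looked at most closely. There were 192 of them, called the selected genes.

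The groups were dko seedlings and wild-type seedlings, both 2 weeks old, and, for the selection and for values set beside those of seedlings, rosette leaves of dko and of wild-type plants, both 4 weeks old. All plants were started on MS medium after 2 days of stratification at 4 °C and grown at 22 °C with 16 h of light, and rosettes came from plants put on soil when 5 days old. Seedlings and rosettes thus differed in age, in organs sampled and in medium, and these differences cannot be told apart. The labels state 3 replicates for each group and give no mutant allele. The tables hold 1 pooled value per group, so no spread between replicates can be printed. The test used is the authors' own, with the q-value of their deposited table at 0.05 as the threshold. Nothing says whether the replicates were separate plants or pools, and these q-values measure only the spread between the samples, which may be technical. The depth of the libraries is unknown. In RNA of whole seedlings, fewer cells of a type and less RNA per cell cannot be told apart.

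TRIC1 and TRIC2 are close copies of the PRAT family of membrane proteins, and in Arabidopsis they have been described as mitochondrial proteins with a part in the import of transfer RNA. Mitochondria of plants lack some transfer RNA genes and take up the missing molecules from the cytosol. Transfer RNA inside mitochondria serves the translation of subunits of the respiratory chain. In a young seedling, respiration, the build-up of photosynthesis and growth by cell expansion, which is steered by auxin and light, run side by side.

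TRIC2 stood at 0.366 FPKM in dko seedlings, against 17.7 FPKM in wild-type seedlings, a ratio of -3.77. TRIC1 stood at 16.2 FPKM in dko seedlings, against 33.9 FPKM in wild-type seedlings, a ratio of -1.02. Both had q = 0.000768, the smallest value in the authors' deposited table, which 1286 loci share. Reads of TRIC2 were thus nearly absent from the dko, and those of TRIC1 were lower but present. In rosettes, TRIC2 stood at 0.0690 FPKM in dko and 17.5 FPKM in wild type without passing the threshold (q = 0.146 in the authors' deposited table), and TRIC1 at 10.7 FPKM in dko and 34.7 FPKM in wild type. How the mutant alleles lie relative to the counted reads is not stated in the labels. The tissue label was checked with 32 genes of root tissues. Of these, 30 were higher in wild-type seedlings than in wild-type rosettes, though the tables were normalised separately. Of the 32, 8 reached 1 FPKM in seedlings and 0 were listed at 0 in both genotypes there. PYK10, a beta-glucosidase of root and hypocotyl ER bodies, stood at 178 FPKM in dko and 213 FPKM in wild-type seedlings, against 1.21 FPKM in dko and 1.57 FPKM in wild-type rosettes. The summed level of the 32 was 234 FPKM in dko and 276 FPKM in wild-type seedlings, and 1 of the 8 tested, NAI2, was lower in the dko (q = 0.0438 in the authors' deposited table), where 8.41% of all tested members were. None of 13 genes for seed storage and oil body proteins reached 1 FPKM.

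The response of seedlings was wide and mostly small. Of 19035 tested members, 3236 (17.0%) passed q 0.05 in the authors' deposited table. The 1636 higher in the dko were 8.59% of those tested, and the 1600 lower were 8.41%. The median ratio over the 19128 members was 0.01, and 5% of them lay below -0.59 and 5% above 0.56. Among those past the threshold the median size of the ratio was 0.55, and 2594 had a ratio under 0.8 in size. The share of members with a ratio of 0.8 or more in size was 4.51%, with 355 higher and 507 lower. Of these 862, 642 passed the threshold, 148 were tested and did not pass, and 72 had no test.

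Large ratios were more frequent in rosettes. Of the seedling members, 877 had a rosette ratio at or above 0.8 and 1094 at or below -0.8. Among members tested in rosettes, 16.6% passed q 0.05 there, 7.84% higher and 8.81% lower in dko rosettes. In both tissues, 1179 members passed in the same direction, which is 36.4% of the seedling calls and 40.1% of the rosette calls, and 121 passed in opposite directions. Across the 19128 members the ratios of both tissues had a Pearson r of 0.36 and a Spearman rho of 0.41. Each point is a gene with pooled values, genes are not independent replicates, and low genes have ratios near 0 in both tables.

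**Figure D1:**
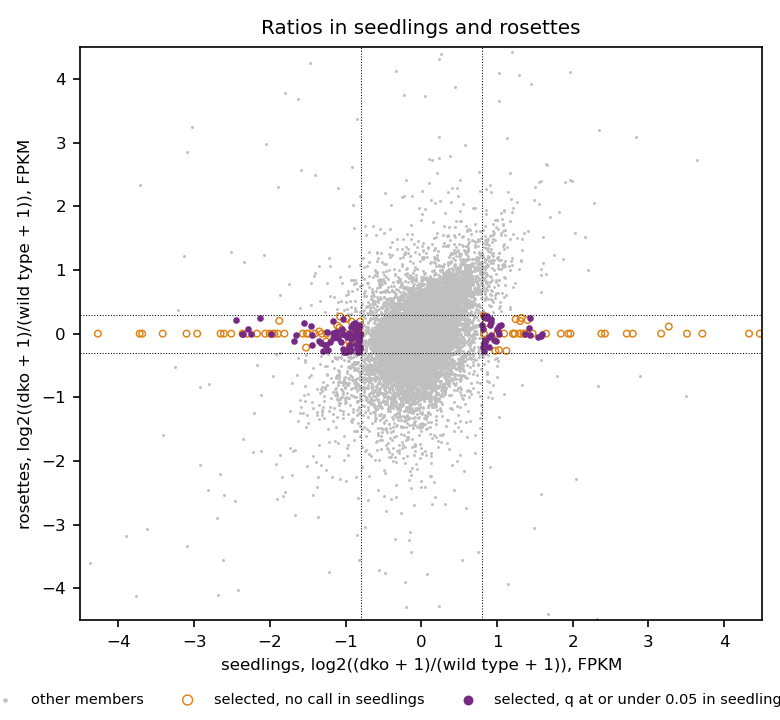
Ratio of each member in seedlings (x axis) and rosettes (y axis), both as log2((dko + 1)/(wild type + 1)) of FPKM, with dotted lines at 0.8 and 0.3; 27 members outside the axes are not drawn. The selected genes form the 2 bands beside the centre, and the open circles, without a call in seedlings, reach farther out than the filled ones.

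The 10 members past the threshold with the highest ratios included ACC2, UPOX and TOM7-2. ACC2, a single-chain acetyl-CoA carboxylase of plastids, stood at 22.0 FPKM in dko and 3.71 FPKM in wild-type seedlings, a ratio of 2.29. UPOX, a small mitochondrial protein induced by oxidative stress, stood at 138 FPKM in dko and 41.0 FPKM in wild-type seedlings, a ratio of 1.73. TOM7-2, a small subunit of the outer membrane translocase, stood at 52.2 FPKM in dko and 13.3 FPKM in wild-type seedlings, a ratio of 1.90. All of these were also higher in dko rosettes, where UPOX had a ratio of 4.90. The other members among the 10 highest were AT4G05370, AT2G35570, AT5G60250, AT2G04050, AT1G30170 and AT4G05380, with ratios between 1.82 and 2.34. Also among the 10 was the chloroplast locus ATCG00960, at 149 FPKM in dko seedlings and listed at 0 in wild-type seedlings. In rosettes ATCG00960 went the other way, at 27.0 FPKM in dko and 59.5 FPKM in wild type. It is not in the reference annotation used for product names. Annotated ribosomal RNA loci were left out of this ranking, and that filter could not act on ATCG00960. Whether its reads are ribosomal RNA left after depletion was not tested. The q-values of the named genes were between 0.000768 and 0.013 in the authors' deposited table.

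Beside TRIC2, the 10 lowest held genes of photosynthesis, nitrogen and iron. RBCS2B, a small subunit of Rubisco, stood at 165 FPKM in dko and 1759.9 FPKM in wild-type seedlings, a ratio of -3.41. PORA, the protochlorophyllide oxidoreductase of greening tissue, stood at 0.167 FPKM in dko and 10.1 FPKM in wild-type seedlings, a ratio of -3.25. IMA3, a peptide that acts in the iron deficiency response, stood at 2.15 FPKM in dko and 21.0 FPKM in wild-type seedlings, a ratio of -2.80. PCC1, a gene under circadian and pathogen control, stood at 123 FPKM in dko and 809 FPKM in wild-type seedlings, a ratio of -2.70. All 4 had q = 0.000768 in the authors' deposited table. The remaining ones were AT2G14247, AT4G13495, AT1G14250, DIN6 and HTA4, and the last 2 are described further on.

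The 192 selected genes were 22.3% of the 862 members past 0.8, and 120 were lower and 72 higher in dko seedlings. Values of seedlings and rosettes chose them, so the counts that follow describe the choice and are not evidence of a difference between tissues, which was not tested. Of the 192, 146 had a test in seedlings and 104 passed q 0.05 in the authors' deposited table, 71 lower and 33 higher, while 42 did not pass. The other 46 had no test. Of those, 45 were listed at 0 in a seedling group, their median span was 166.5 bp against 2426 bp over all members, and 10 were microRNA loci. Of the selected genes 28.6% spanned under 300 bp, against 1.25% of all members, and among the 104 with a call 3 did. None of the 192 passed the threshold in rosettes, where 84 had a test.

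For many of the selected genes the small ratio in rosettes went with a low level there. In 110 of the 192 neither rosette group reached 1 FPKM, and 67 were listed at 0 in both. Among all 19128 members, 9.71% lay under 1 FPKM in rosettes. The selected genes with a call in seedlings and at least 1 FPKM in rosettes, where a change could have shown, numbered 64, of which 49 were lower and 15 higher in dko seedlings. The 71 lower genes with a call had a median ratio of -1.03 in seedlings and -0.05 in rosettes, and the 33 higher ones 0.92 and 0.00.

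The gene lowest in ratio among those with a call was AT3G62950, a glutaredoxin-like member of the thioredoxin superfamily. It stood at 1.06 FPKM in dko and 10.2 FPKM in wild-type seedlings, against 23.0 FPKM in dko and 19.8 FPKM in wild-type rosettes. AT1G66100, a thionin, stood at 10.5 FPKM in dko and 57.7 FPKM in wild-type seedlings, and at 32.4 FPKM in both groups of rosettes. AT2G05540, a glycine-rich protein, stood at 8.60 FPKM in dko and 45.9 FPKM in wild-type seedlings, against 18.5 FPKM in dko and 17.5 FPKM in wild-type rosettes. The ratios of the 3 genes in seedlings were -2.44, -2.36 and -2.29, and each was readily detected in both rosette groups.

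DIN1, also called SEN1, a gene induced by darkness and senescence, had 16.3 FPKM in dko and 74.8 FPKM in wild-type seedlings, a ratio of -2.13. In rosettes it had 161 FPKM in dko and 137 FPKM in wild type. GPT2, the plastid glucose 6-phosphate/phosphate translocator that responds to sugar and light, had 5.00 FPKM in dko and 18.2 FPKM in wild-type seedlings, a ratio of -1.68. It was low in rosettes, with 0.266 FPKM in dko and 0.376 FPKM in wild type, so a change there could hardly have been seen. AT5G59080, an uncharacterised protein, had 5.96 FPKM in dko and 20.9 FPKM in wild-type seedlings, against 27.9 FPKM in dko and 28.3 FPKM in wild-type rosettes. All 6 genes had q = 0.000768 in seedlings in the authors' deposited table.

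The rest of the 12 lowest tested genes had low levels in dko seedlings. AT1G13608, a defensin-like protein, AT1G51035 and AT5G35631 were listed at 0 in dko seedlings and at 4.17, 3.76 and 2.97 FPKM in wild-type seedlings, with q-values of 0.00681, 0.0123 and 0.0329 in the authors' deposited table. AT5G03204, AT5G44973 and AT3G49744 stood at 0, 0.340 and 0 FPKM in dko seedlings, against 44.8, 4.23 and 2.83 FPKM in wild-type seedlings, and did not pass the threshold. All 6 were listed at 0 in both rosette groups.

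The 250 bases before the annotated gene start are shown for 6 of the selected genes that were lower and 1 that was higher. They allow a comparison of AT3G62950 and AT2G05540, both of low ratio, a pair of auxin genes of the same cluster and some carriers of searched motifs. They are read 5′ to 3′ on the strand of the gene from the RefSeq assembly TAIR10.1, overlap no other annotated gene, and have matches to the motifs listed further on in capitals.
AT3G62950 (chr3:23265977-23266226, plus strand): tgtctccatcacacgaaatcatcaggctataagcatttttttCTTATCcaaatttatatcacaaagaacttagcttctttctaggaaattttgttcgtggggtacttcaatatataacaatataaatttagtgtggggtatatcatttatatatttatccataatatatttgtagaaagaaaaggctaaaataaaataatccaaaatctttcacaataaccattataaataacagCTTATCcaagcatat
AT2G05540 (chr2:2032904-2033153, plus strand): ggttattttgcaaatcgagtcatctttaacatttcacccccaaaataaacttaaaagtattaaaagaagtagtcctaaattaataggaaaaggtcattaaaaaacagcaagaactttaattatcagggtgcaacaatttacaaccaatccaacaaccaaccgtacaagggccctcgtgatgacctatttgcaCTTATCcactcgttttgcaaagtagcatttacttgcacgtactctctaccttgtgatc
GPT2 (chr1:22824164-22824413, plus strand): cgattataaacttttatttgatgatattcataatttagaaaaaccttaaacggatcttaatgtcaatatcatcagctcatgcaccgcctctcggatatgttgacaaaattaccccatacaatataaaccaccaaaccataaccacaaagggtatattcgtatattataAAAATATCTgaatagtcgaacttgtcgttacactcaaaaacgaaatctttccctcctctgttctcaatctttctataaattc
DREB2A (chr5:1601955-1602204, plus strand): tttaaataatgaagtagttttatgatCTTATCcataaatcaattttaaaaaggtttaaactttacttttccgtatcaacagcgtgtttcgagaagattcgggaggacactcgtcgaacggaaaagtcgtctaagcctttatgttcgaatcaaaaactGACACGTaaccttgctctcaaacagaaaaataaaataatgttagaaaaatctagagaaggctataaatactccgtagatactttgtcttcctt
SAUR22 (chr5:5975088-5975337, minus strand): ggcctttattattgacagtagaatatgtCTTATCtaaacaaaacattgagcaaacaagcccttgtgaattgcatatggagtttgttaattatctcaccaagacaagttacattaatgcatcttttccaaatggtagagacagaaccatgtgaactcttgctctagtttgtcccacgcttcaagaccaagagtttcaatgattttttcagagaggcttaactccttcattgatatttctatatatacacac
SAUR24 (chr5:5983433-5983682, plus strand): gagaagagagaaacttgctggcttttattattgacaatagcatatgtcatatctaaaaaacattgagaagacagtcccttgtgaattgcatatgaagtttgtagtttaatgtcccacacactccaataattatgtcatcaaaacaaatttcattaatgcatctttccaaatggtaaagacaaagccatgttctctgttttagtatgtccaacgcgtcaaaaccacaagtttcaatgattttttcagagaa
AT5G53230 (chr5:21598598-21598847, plus strand): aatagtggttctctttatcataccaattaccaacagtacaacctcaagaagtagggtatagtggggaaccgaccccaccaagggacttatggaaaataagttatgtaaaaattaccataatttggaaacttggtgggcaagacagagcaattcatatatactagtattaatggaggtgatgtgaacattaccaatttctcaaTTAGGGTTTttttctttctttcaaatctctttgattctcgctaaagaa

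The capitals mark GATAAG or its reverse complement CTTATC in AT3G62950, AT2G05540, DREB2A and SAUR22, the evening element in GPT2, ACGTGTC or its reverse complement in DREB2A and the telobox in AT5G53230. The window of SAUR24 held none of the motifs. Neither did those of AT1G13608 and AT1G66100, which are not shown and whose ratios lay between those of AT3G62950 and AT2G05540. The choice of windows thus favoured carriers of motifs, and shares over the selected genes with a call are given further on. SAUR22 and SAUR24, which lie in the same cluster on chromosome 5, were identical at 57.2% of 271 aligned positions of these windows. For SAUR22 and the unlinked SAUR9 it was 51.5% of 266. Gaps, also those at the ends, count as positions that differ. The windows of SAUR22 and SAUR24 are offset from each other, so their share understates the likeness of the stretch they have in common.

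SAUR genes encode small proteins, many of them induced by auxin, and those of the SAUR19 to SAUR24 group promote cell expansion. Of 80 SAUR genes, 59 reached 1 FPKM and were tested, and 21 passed the threshold as lower and 2 as higher, with a median ratio of -0.44 against 0.01 over all members. In rosettes, 3 of 48 tested were lower and 3 higher in the dko, and the median over the 59 was -0.06. Over all tested members, 8.41% were lower and 8.59% higher in dko seedlings. Seedling counts of the lists and families that follow are to be read beside these shares. A gene under 1 FPKM in 1 seedling group entered such counts only through the group where it was higher.

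SAUR24 stood at 17.5 FPKM in dko and 49.6 FPKM in wild-type seedlings, a ratio of -1.45, and at 9.53 FPKM in dko and 8.69 FPKM in wild-type rosettes. SAUR22 stood at 6.85 FPKM in dko and 17.9 FPKM in wild-type seedlings, a ratio of -1.27, and at 1.03 FPKM in dko and 1.296 FPKM in wild-type rosettes. The other members of the cluster, SAUR19, SAUR20, AT5G18030 and SAUR23, had ratios of -1.46, -0.99, -0.88 and -0.94 in seedlings. All 6 passed with q = 0.000768 in the authors' deposited table. In rosettes the 6 ran from -0.66 for SAUR23 to 0.79 for SAUR19, with no call. They are near copies of each other, and how reads were split between copies is not stated in the labels.

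Every gene of the cluster was lower in dko seedlings. SAUR9 was also selected, at 0.400 FPKM in dko and 1.79 FPKM in wild-type seedlings (q = 0.025 in the authors' deposited table), as was AT1G29490, which did not pass. The lowest ratio of an unselected SAUR gene after SAUR19 was that of AT3G53250, at 5.85 FPKM in dko and 16.0 FPKM in wild-type seedlings. Of the 2 higher members, AT3G09870 had a ratio of 0.86 and AT1G72430 of 0.35.

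YUCCA flavin monooxygenases make auxin from indole-3-pyruvate. Of 11 family members, 5 reached 1 FPKM, and 3 passed the threshold, all lower in the dko and all selected. YUC9 stood at 0.745 FPKM in dko and 3.16 FPKM in wild-type seedlings, a ratio of -1.25. YUC8 stood at 1.43 FPKM in dko and 3.61 FPKM in wild-type seedlings, and YUC2 at 0.491 FPKM in dko and 1.62 FPKM in wild-type seedlings. The authors' deposited table gives q = 0.000768 for all 3. YUC9 and YUC2 reached 1 FPKM in wild-type seedlings alone, so the limit on level let them in through their higher group. All 3 YUCCA genes lay under 1 FPKM in both rosette groups, where nothing could be read from their ratios. This family was chosen after values were seen.

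In a list of 15 auxin response genes, which holds YUC8 and YUC9, 7 of 13 tested passed the threshold and all 7 were lower, with a median ratio of -0.57 in seedlings and -0.25 in rosettes. In rosettes 6 were lower and 1 higher in the dko of 10 tested. IAA29, a repressor of auxin response, stood at 5.58 FPKM in dko and 17.6 FPKM in wild-type seedlings, a ratio of -1.50. IAA3 stood at 27.9 FPKM in dko and 48.5 FPKM in wild-type seedlings, against 34.1 FPKM in dko and 30.5 FPKM in wild-type rosettes. Expansins, which loosen cell walls, had 5 lower and 0 higher of 18 tested, with a median ratio of -0.02, and 6 lower and 2 higher of 16 tested in rosettes. EXPA11 stood at 14.9 FPKM in dko and 44.7 FPKM in wild-type seedlings, a ratio of -1.52 and -1.47 in rosettes. EXPA8 and EXPA1 were lower in dko seedlings, with ratios of -1.200 and -0.81, and higher in dko rosettes, with ratios of 1.06 and 2.15, and passed the threshold in both. Xyloglucan endotransglucosylase/hydrolases had 5 lower and 2 higher of 23 tested, and 8 lower and 2 higher of 21 tested in rosettes, with XTH15 at 1.27 FPKM in dko and 5.89 FPKM in wild-type seedlings.

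Aquaporins, the water channels of the plasma membrane and tonoplast, had 10 lower and 1 higher of 26 tested, with a median ratio of -0.09. PIP2B and TIP2;2 were among the selected genes. PIP2B stood at 23.46 FPKM in dko and 44.3 FPKM in wild-type seedlings, against 47.4 FPKM in dko and 48.0 FPKM in wild-type rosettes. TIP2;2 stood at 35.3 FPKM in dko and 65.4 FPKM in wild-type seedlings, against 136 FPKM in dko and 120.2 FPKM in wild-type rosettes. PIP1;5 had the lowest ratio of the family, -1.04 in seedlings, and -0.99 in rosettes, and PIP2;5 was the one higher, at 0.52.

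**Figure D2:**
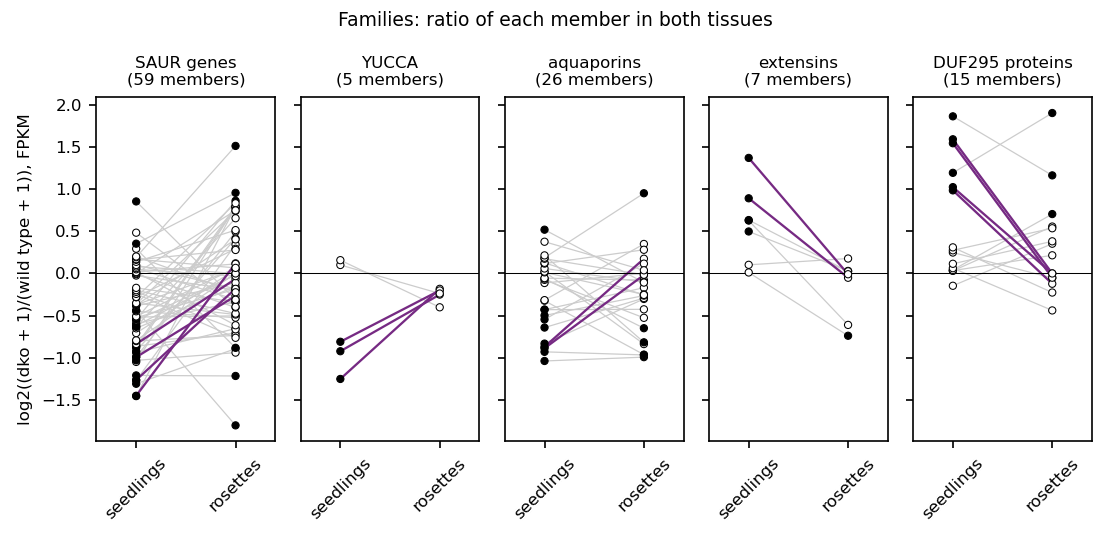
Ratio, log2((dko + 1)/(wild type + 1)) of FPKM, of each member of 5 families in seedlings (left) and rosettes (right), joined by lines. Filled points passed q 0.05 in the authors' deposited table, open points did not or had no test, and purple lines mark selected genes. In seedlings, SAUR, YUCCA and aquaporin calls are mostly below 0, and extensin and DUF295 calls are all above 0.

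Other hormone genes among the selected ones were also lower in dko seedlings. NCED3, the enzyme of the controlling step of abscisic acid synthesis, stood at 8.05 FPKM in dko and 17.8 FPKM in wild-type seedlings, against 12.5 FPKM in dko and 11.8 FPKM in wild-type rosettes. ARR5, a response regulator induced by cytokinin, stood at 2.47 FPKM in dko and 5.85 FPKM in wild-type seedlings, against 6.02 FPKM in dko and 6.31 FPKM in wild-type rosettes. GASA6, a gibberellin-regulated cell wall peptide, stood at 223 FPKM in dko and 527 FPKM in wild-type seedlings, against 104 FPKM in dko and 102 FPKM in wild-type rosettes. Their ratios in seedlings were -1.05, -0.98 and -1.24, and the authors' deposited table gives all of them q = 0.000768. ACS4, an enzyme of ethylene synthesis, stood at 0.305 FPKM in dko and 1.83 FPKM in wild-type seedlings, and ETP1, which acts on the ethylene signalling protein EIN2, at 5.80 FPKM in dko and 13.1 FPKM in wild-type seedlings. GASA6, ACS4 and ETP1 were chosen after their values were seen.

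The list of 14 cytokinin response genes had 4 lower and 0 higher of 12 tested, with a median of -0.38 in seedlings and 0.05 in rosettes, where 0 of 11 tested passed. ARR4 and ARR6 had ratios of -0.65 and -0.80. The list for cold, dehydration and abscisic acid had 14 lower and 0 higher of 26 tested, with a median of -0.44 in seedlings and -0.46 in rosettes. CBF1, a transcription factor of cold acclimation, was selected and stood at 1.88 FPKM in dko and 6.24 FPKM in wild-type seedlings, against 8.08 FPKM in dko and 9.02 FPKM in wild-type rosettes. Its neighbours CBF2 and CBF3 had ratios of -0.54 and -0.72, both past the threshold. COR47, a dehydrin, stood at 137 FPKM in dko and 323 FPKM in wild-type seedlings, and COR414-TM1 at 73.2 FPKM in dko and 167 FPKM in wild-type seedlings. DREB2A, a drought and heat response factor whose window is printed above, stood at 2.78 FPKM in dko and 6.03 FPKM in wild-type seedlings, against 16.9 FPKM in dko and 15.5 FPKM in wild-type rosettes. It was the single call among 8 tested genes of the heat shock list, and it was lower.

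Genes that respond to darkness and sugar starvation were mostly lower in dko seedlings. The list had 13 lower and 1 higher of 23 tested in dko seedlings, with a median ratio of -0.47. In rosettes, 6 of 22 tested passed and all 6 were higher in the dko, with a median of 0.23. DIN6, the glutamine-dependent asparagine synthetase ASN1, stood at 6.15 FPKM in dko and 62.0 FPKM in wild-type seedlings, and at 13.6 FPKM in dko and 5.30 FPKM in wild-type rosettes. PRODH1, the mitochondrial proline dehydrogenase, stood at 5.28 FPKM in dko and 15.8 FPKM in wild-type seedlings, and at 64.9 FPKM in dko and 34.3 FPKM in wild-type rosettes. Both were calls in both tables with opposite directions. DRM2, a dormancy-associated gene, was selected, with 397 FPKM in dko and 785 FPKM in wild-type seedlings, against 1259 FPKM in dko and 1291 FPKM in wild-type rosettes. EXL1, named EXORDIUM-like 1, was the one higher in dko seedlings, with a ratio of 0.79. The difference between tissues was not tested.

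Plant defensins stood out among the genes called in opposite directions in seedlings and rosettes. PDF1.2, a marker of jasmonate and ethylene responses, stood at 6.53 FPKM in dko and 25.1 FPKM in wild-type seedlings, and at 2185 FPKM in dko and 158 FPKM in wild-type rosettes. PDF1.3 stood at 0.945 FPKM in dko and 5.61 FPKM in wild-type seedlings, and at 259.7 FPKM in dko and 3.36 FPKM in wild-type rosettes. PDF1.2c followed, with ratios of -1.47 in seedlings and 4.25 in rosettes. All 3 passed the threshold in both tables and are close copies, so reads may be split between them. Over the family, 3 were lower and 2 higher of 11 tested in dko seedlings, and 0 lower and 4 higher of 8 tested in dko rosettes. AT4G12490, of the lipid transfer superfamily, was lower in dko seedlings at 3.59 FPKM, against 8.84 FPKM in wild type, and higher in dko rosettes at 5.62 FPKM, against 0.354 FPKM in wild type.

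Photosynthesis genes were lower in dko seedlings almost throughout. Of 51 genes for light harvesting and photosystems, 50 were lower in dko seedlings and 0 higher, with a median ratio of -1.17 in seedlings and -0.93 in rosettes. In rosettes 35 of them passed as lower and 0 as higher, and none was selected. LHCB2.3, an antenna protein of photosystem II, stood at 88.4 FPKM in dko and 572 FPKM in wild-type seedlings. The Calvin cycle and photorespiration list had 22 lower of 30 tested, with a median of -0.71 and -0.70 in rosettes. Its single selected member was CA2, a beta-carbonic anhydrase, at 240.3 FPKM in dko and 538 FPKM in wild-type seedlings, against 311 FPKM in dko and 307 FPKM in wild-type rosettes. Its homologue CA1 was lower in both tissues, with ratios of -1.69 and -1.84. The genes of chlorophyll synthesis and breakdown had 10 lower and 1 higher of 32 tested, with PORB at 429 FPKM in dko and 949.8 FPKM in wild-type seedlings.

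A few plastid genes of other kinds were selected. SIG5, a sigma factor of the plastid RNA polymerase, stood at 3.16 FPKM in dko and 7.50 FPKM in wild-type seedlings, against 4.61 FPKM in dko and 5.63 FPKM in wild-type rosettes. OHP2, a one-helix protein of thylakoids, stood at 57.5 FPKM in dko and 103 FPKM in wild-type seedlings, against 110.0 FPKM in dko and 99.96 FPKM in wild-type rosettes. HSP93-III, a chaperone of the plastid protein import motor, was higher, at 42.4 FPKM in dko and 23.3 FPKM in wild-type seedlings, against 6.84 FPKM in dko and 7.60 FPKM in wild-type rosettes. OHP2 and HSP93-III were chosen after their values were seen, and all 3 had q = 0.000768 in the authors' deposited table. OHP2 shares its span with another locus, so its reads may not be told apart. The organelle transcription list had 3 higher and 2 lower of 9 tested, and the 3 higher were the phage-type RNA polymerases RPOTP, RPOTMP and RPOTM, with ratios of 0.80, 0.73 and 0.51.

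**Figure D3:**
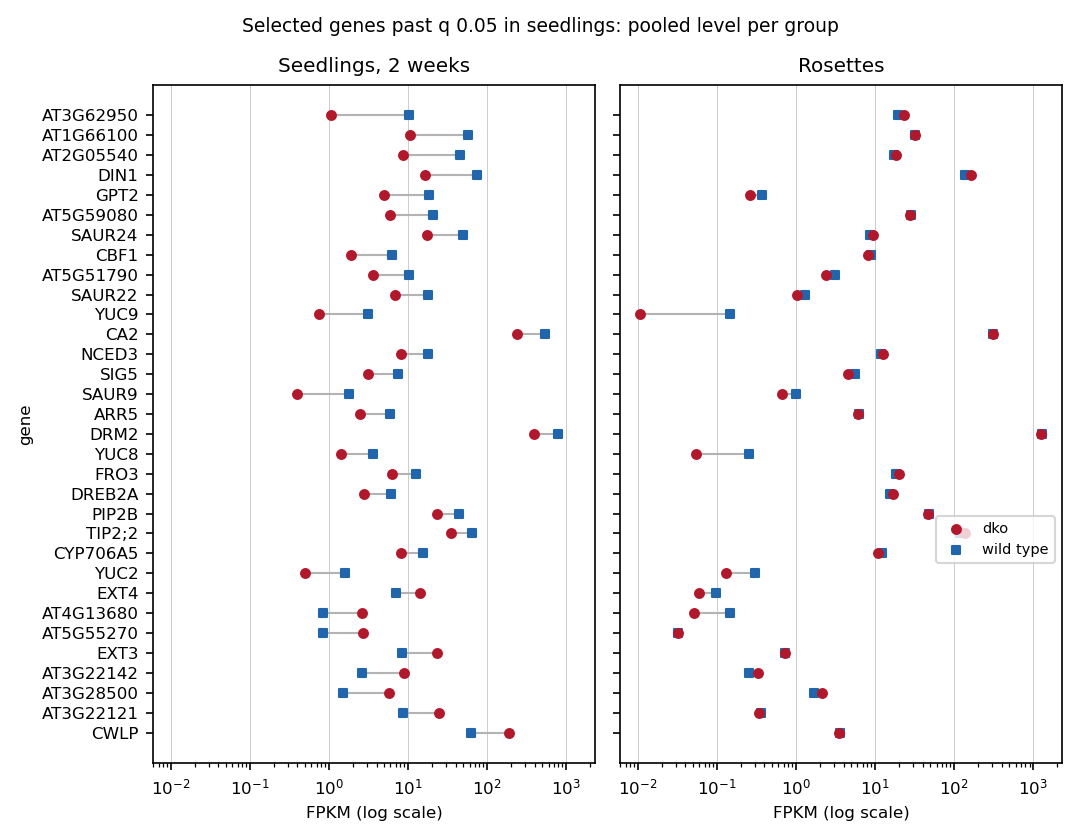
Pooled FPKM (log axis) of 32 selected genes with a call in seedlings, in seedlings (left panel) and rosettes (right panel), dko as red circles and wild type as blue squares. In seedlings the symbols stand apart for every gene, as the selection requires, with 24 lower and 8 higher in the dko, and several genes lie under 1 FPKM in rosettes.

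The light signalling list had 5 lower and 0 higher of 15 tested. ELIP1, an early light-induced protein, stood at 0.876 FPKM in dko and 6.29 FPKM in wild-type seedlings, and HFR1, a bHLH factor of the shade response, at 8.67 FPKM in dko and 15.5 FPKM in wild-type seedlings. HB2 and PIF4 were lower with ratios of -0.76 and -0.56. CIB1, a bHLH factor that binds cryptochrome 2, was selected and stood at 3.23 FPKM in dko and 10.5 FPKM in wild-type seedlings (q = 0.00202 in the authors' deposited table), and at most 0.129 FPKM in rosettes. BBX27, a B-box zinc finger factor, was selected too, at 15.7 FPKM in dko and 37.4 FPKM in wild-type seedlings, against 24.5 FPKM in dko and 26.9 FPKM in wild-type rosettes. CIB1 and BBX27 were chosen after their values were seen, and CIB1 shares its span with another locus, so its reads may not be told apart. The circadian clock and flowering list had 7 lower and 1 higher of 38 tested, a median of -0.16 and ratios between -0.64 and 0.55, with none selected. PRR9 and RVE7 were the lowest in ratio, at -0.64 and -0.63, and GRP8 was the one higher, at 0.55.

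Iron homeostasis had 8 lower and 0 higher of 23 tested, with a median of -0.45 in seedlings and -0.20 in rosettes. FRO3, a ferric reductase, was selected, at 6.25 FPKM in dko and 12.7 FPKM in wild-type seedlings, against 19.8 FPKM in dko and 18.3 FPKM in wild-type rosettes. BHLH39 was selected at 0.0378 FPKM in dko and 1.64 FPKM in wild-type seedlings without passing the threshold (q = 0.39 in the authors' deposited table), and its relative BHLH101 passed with a ratio of -1.75 in seedlings and 0.79 in rosettes. IMA2 stood at 2.09 FPKM in dko and 14.8 FPKM in wild-type seedlings. Genes of nitrate and ammonium uptake and assimilation had 7 lower of 25 tested, among them GLN2, the plastid glutamine synthetase, at 194 FPKM in dko and 566 FPKM in wild-type seedlings. Phosphate starvation genes had 7 lower of 17 tested, with RNS1 at 1.54 FPKM in dko and 6.66 FPKM in wild-type seedlings. Sulfur starvation genes had 3 higher and 0 lower of 14 tested in seedlings, SDI2, SULTR4;2 and APR2, while 1 was higher and 8 lower of 13 tested in dko rosettes. The copper and superoxide dismutase list had 2 higher and 0 lower of 9 tested, FSD2 and FSD3, with ratios of 0.89 and 0.79.

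**Figure D4:**
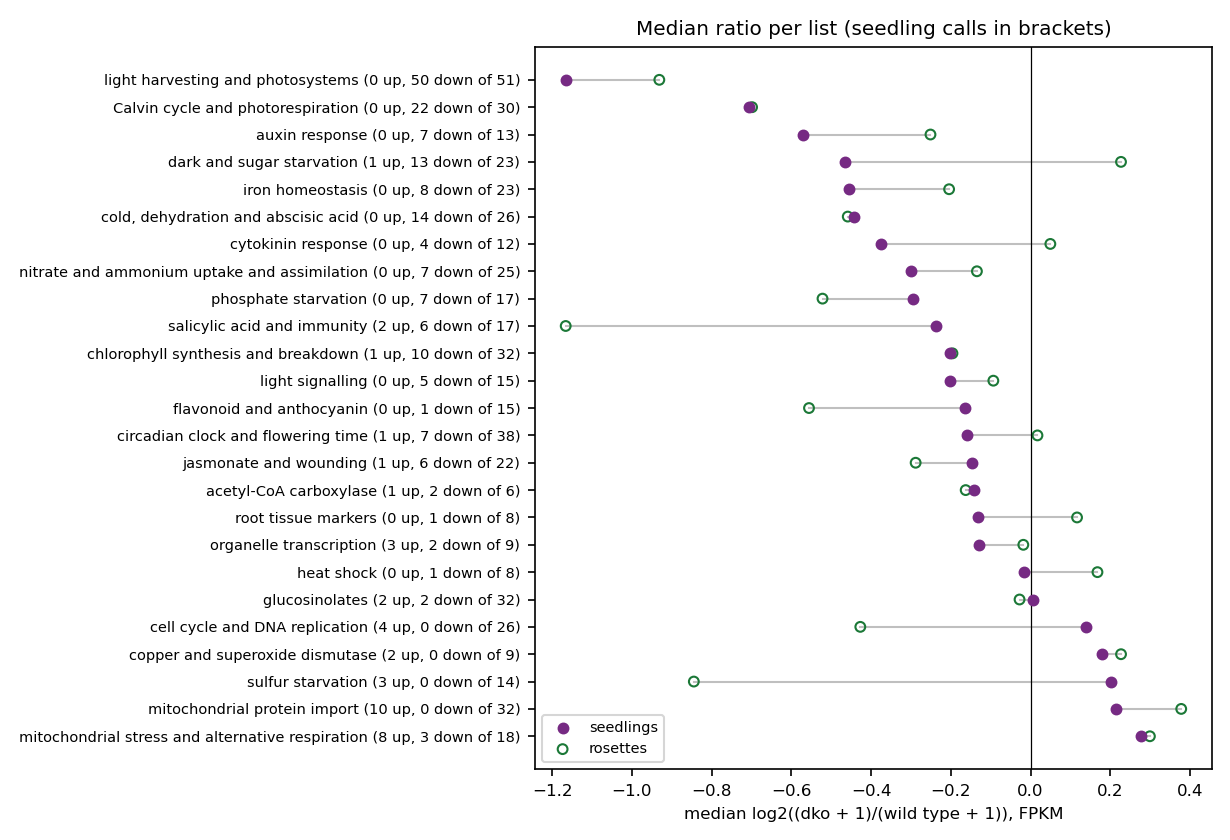
Median ratio, log2((dko + 1)/(wild type + 1)) of FPKM, over the members of 25 gene lists in seedlings (filled) and rosettes (open), with the number of seedling members past q 0.05 up and down in the dko of those tested in brackets. Photosynthesis lists lie lowest in seedlings, and the medians of several lists differ in sign between the tissues, among them dark and sugar starvation, sulfur starvation, cell cycle and cytokinin response.

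Among the defence lists, salicylic acid and immunity had 6 lower and 2 higher of 17 tested in seedlings, with a median of -0.24, against 11 lower and 0 higher of 19 tested and a median of -1.17 in rosettes. PR2, a beta-1,3-glucanase and 1 of the 2 higher, stood at 35.2 FPKM in dko and 21.0 FPKM in wild-type seedlings, against 5.92 FPKM in dko and 24.4 FPKM in wild-type rosettes, with calls in both. Jasmonate and wounding genes had 6 lower and 1 higher of 22 tested, and the higher one was VSP1, a vegetative storage protein, with a ratio of 0.74. Glucosinolate genes had 2 lower and 2 higher of 32 tested, near the 8.41% lower and 8.59% higher over all tested members. Flavonoid and anthocyanin genes had 1 lower and 0 higher of 15 tested. Acetyl-CoA carboxylase genes had 2 lower and 1 higher, ACC2, of 6 tested.

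Cell cycle and DNA replication genes had 4 higher and 0 lower of 26 tested in seedlings, among them PARP2 and CYCB1;1 with ratios of 1.096 and 0.89. In rosettes, 4 were higher and 9 lower of 19 tested. Mitochondrial stress genes had 8 higher and 3 lower of 18 tested. Of the higher ones, AOX1C stood at 2.86 FPKM in dko and 0.710 FPKM in wild-type seedlings. HSP23.5 stood at 3.72 FPKM in dko and 1.14 FPKM in wild-type seedlings. The lowest ratio was that of GSTU24, at 1.79 FPKM in dko and 4.15 FPKM in wild-type seedlings. GSTU24 was higher in dko rosettes, with a ratio of 1.66, and passed the threshold in both tissues. Mitochondrial protein import genes had 10 higher and 0 lower of 32 tested, with a median of 0.22, and 5 higher at q 0.01 in the authors' deposited table. None of these lists held a selected gene. Of loci encoded in the mitochondrial genome, 35 were higher and 0 lower of 74 tested, which is 47.3%, and the median ratio was 0.53 in seedlings and 0.88 in rosettes. Of chloroplast loci, 14 were higher and 8 lower of 88 tested.

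Cytochrome P450 genes had 25 lower and 6 higher of 118 tested, with BR6OX2, the enzyme of the last step of brassinosteroid synthesis, at 6.66 FPKM in dko and 23.4 FPKM in wild-type seedlings. CYP706A5 was the one selected among them, at 8.19 FPKM in dko and 15.6 FPKM in wild-type seedlings, against 11.01 FPKM in dko and 12.4 FPKM in wild-type rosettes. Glutathione transferases had 7 lower and 0 higher of 36 tested. WRKY factors had 3 lower and 5 higher of 48 tested, NAC factors 8 lower and 7 higher of 52, and class III peroxidases 3 lower and 0 higher of 33. The WRKY counts and the lower count of peroxidases lay near the shares over all tested members, 8.41% lower and 8.59% higher. NAC103 and NAC044 had the highest ratios of the NAC factors, 1.59 and 1.56. Lipid transfer proteins had 2 higher and 0 lower of 7 tested, and the ribosomal proteins matched by name 1 higher and 0 lower of 7. That match held only 10 loci and missed AT3G28500, given below, so its counts do not stand for ribosomal proteins as a whole. Among bHLH factors, a family chosen after values were seen, 14 were lower and 6 higher of 89 tested, and AT5G51790 and AT3G21330 were selected with a call, at ratios of -1.298 and -1.12. The family was matched by its name in the annotation, which leaves out CIB1 and PIF4, both lower in dko seedlings and given above.

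Of the selected genes that were higher in dko seedlings, CWLP, a cell wall-plasma membrane linker protein, stood at 188 FPKM in dko and 62.1 FPKM in wild-type seedlings, a ratio of 1.58, against 3.496 FPKM in dko and 3.62 FPKM in wild-type rosettes. It lies at chr3:7794957-7796327 (TAIR10), a span that the table also gives to the noncoding locus AT3G22121. AT3G22121 had a ratio of 1.43, and reads of both cannot be told apart where the use of strand in counting is not known. Another gene nearby, AT3G22142, of the lipid transfer and seed storage albumin superfamily, stood at 8.79 FPKM in dko and 2.64 FPKM in wild-type seedlings.

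Extensins, hydroxyproline-rich proteins that cross-link in cell walls, had 5 higher and 0 lower of 7 tested in seedlings, with a median ratio of 0.63, and 0 higher and 1 lower of 5 tested in rosettes. EXT3 stood at 23.2 FPKM in dko and 8.34 FPKM in wild-type seedlings, a ratio of 1.37. EXT4 stood at 14.0 FPKM in dko and 7.07 FPKM in wild-type seedlings, a ratio of 0.89. Both were selected with q = 0.000768 in the authors' deposited table, and both lay under 1 FPKM in rosettes. The family was matched by its name in the annotation. Its calls include PERK10, an extensin-like receptor kinase, at 16.9 FPKM in dko and 10.5 FPKM in wild-type seedlings. The counts thus do not stand for cross-linking wall proteins alone. Extensins are repetitive and alike, and this family was chosen after values were seen.

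Proteins with the domain DUF295, whose function is not known, had 6 higher and 0 lower of 15 tested, of 69 in the reference. The neighbours AT5G53230 and AT5G53240 stood at 8.33 and 3.55 FPKM in dko seedlings, against 2.19 and 0.505 FPKM in wild-type seedlings. AT5G55270 stood at 2.73 FPKM in dko and 0.830 FPKM in wild-type seedlings, and AT4G13680 at 2.63 FPKM in dko and 0.833 FPKM in wild-type seedlings. These 4 were selected, and each lay at 0.145 FPKM or less in both rosette groups. Of them, AT5G53240, AT5G55270 and AT4G13680 reached 1 FPKM in the dko alone. The limit on level thus favoured higher calls among such low genes. The other calls of the family, AT1G30170 and AT1G30160, had ratios of 1.87 and 1.196 in seedlings and were also higher in dko rosettes. There AT1G30160 had a ratio of 1.91, and AT1G30170 stood at 1.24 FPKM in the dko and was listed at 0 in wild type. This family, too, was chosen after values were seen, as were the aminoacyl-tRNA synthetases, which load transfer RNA with amino acids. Of these synthetases, 20 were higher and 2 lower of 52 tested, and none was selected. Among them 8 were higher and 1 lower when q had to be 0.01 or less in the authors' deposited table.

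Genes of ribosome assembly and RNA binding stood among the remaining higher ones, chosen here after their values were seen. NSN1, a nucleolar GTPase, stood at 10.1 FPKM in dko and 5.18 FPKM in wild-type seedlings, against 4.79 FPKM in dko and 5.23 FPKM in wild-type rosettes. U3D, a small nucleolar RNA of ribosomal RNA processing, stood at 75.2 FPKM in dko and 39.1 FPKM in wild-type seedlings, against 46.4 FPKM in dko and 47.1 FPKM in wild-type rosettes. The span given to U3D, 1727 bp, is shared with another locus, so reads of both may not be told apart. AT3G28500, an acidic protein of the large ribosomal subunit, stood at 5.78 FPKM in dko and 1.51 FPKM in wild-type seedlings. GRP4 and GR-RBP3, glycine-rich RNA-binding proteins, had ratios of 0.83 and 0.90. The 12 highest tested selected genes also held the microRNA precursor loci MIR396b and MIR164b and the loci AT4G05071, AT2G34238 and AT1G74453, and none of these 5 passed the threshold. MIR396b stood at 27.5 FPKM in dko seedlings and was listed at 0 in wild-type seedlings (q = 0.205 in the authors' deposited table).

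Genes just inside and just outside the limits differed little. AT1G21050, GDU6 and AT2G39400 had seedling ratios of -0.80, -0.81 and -0.81, and AT4G26290, AT1G19320 and AT2G16367 just missed, all 3 at -0.80 after rounding. At the rosette limit, AT1G30260, ZAT6 and AT2G43620 had rosette ratios of -0.29, -0.29 and -0.29, and PIP1A, RPT2 and GRP3S of -0.30, -0.30 and -0.30. ZAT6, a zinc finger factor of phosphate and stress responses, stood at 4.94 FPKM in dko and 11.1 FPKM in wild-type seedlings, against 128 FPKM in dko and 157 FPKM in wild-type rosettes.

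The selected genes with a call lay on all 5 nuclear chromosomes. Of the 104, 27 were on chromosome 1, 14 on 2, 23 on 3, 16 on 4 and 24 on 5, shares of 26.0%, 13.5%, 22.1%, 15.4% and 23.1%. All members were spread with shares of 26.0%, 15.5%, 19.8%, 15.1% and 22.7%. Adjacent loci among them were AT5G53230 with AT5G53240, the uncharacterised AT5G59080 with the glycosyltransferase AT5G59070, and CWLP with AT3G22121.

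One run of neighbouring genes was nearly silent in the dko. Of 65 members at 10% or less of the wild-type level in dko seedlings, 5 followed each other on chromosome 4, at chr4:7879561-7893705 (TAIR10), 14.1 kb, and no other run of 3 or more was found. The loci are UNE15, MIR841a, the histone H2A variant gene HTA4, AT4G13572 and AT4G13575. They stood at 0.165 FPKM or less in dko seedlings, against 3.22 to 14.4 FPKM in wild-type seedlings, and at 0.127 FPKM or less in dko rosettes, against 0.952 to 9.09 FPKM in wild-type rosettes. HTA4 and MIR841a share a span, so their reads cannot be told apart. In seedlings, HTA4 and AT4G13572 passed (q = 0.000768 for both, from the authors' deposited table), while the other 3 did not, and in rosettes HTA4 and AT4G13575 passed. On either side, AT4G13550 stood at 7.76 FPKM in dko and 8.71 FPKM in wild-type seedlings, and AT4G13590 at 40.7 FPKM in dko and 39.2 FPKM in wild-type seedlings. Of the loci farther out, the noncoding locus AT4G13495 stood at 17.0 FPKM in dko and 135 FPKM in wild-type seedlings. Neither TRIC gene is on this chromosome, and the cause of the low values was not tested.

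**Figure D5:**
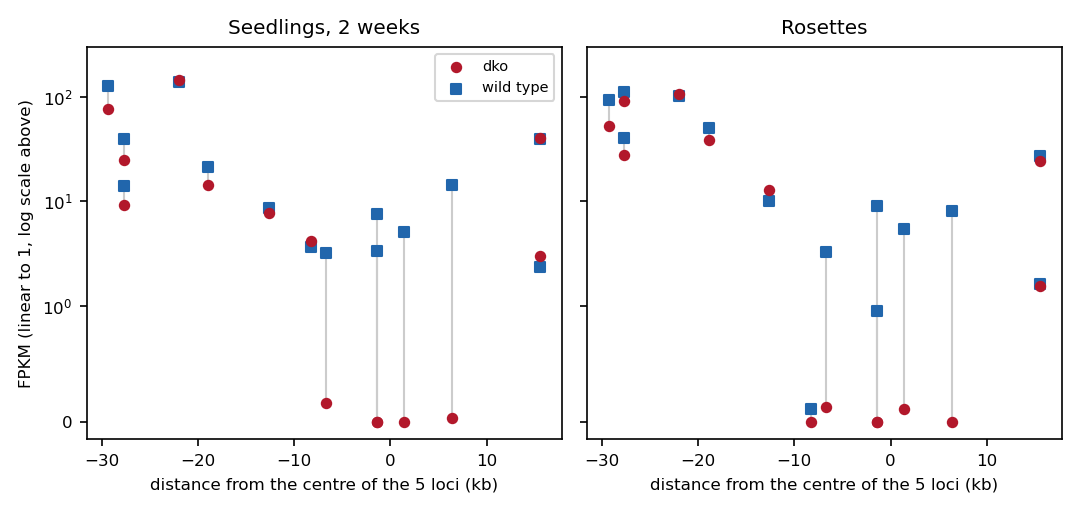
Pooled FPKM (linear to 1, log above) of loci within 30 kb of the centre of the 5 loci on chromosome 4 against distance in kb, for seedlings (left) and rosettes (right), dko as red circles and wild type as blue squares. The 5 central loci lie at or near 0 in the dko in both tissues, and the outer loci show both genotypes close together or the dko moderately lower.

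Upstream windows of 250 bases were available for 33 of 33 higher and 70 of 71 lower selected genes with a call, and for 18823 members. Matches were counted on either strand for the I-box GATAAG, the G-box CACGTG, the ABRE ACGTGTC, the W-box TTGACC, the evening element AAAATATCT and the telobox AAACCCTAA. GATAAG was found in 18.6% of the lower and 15.2% of the higher selected genes, against 12.5% of all members and 17.9% of all members called lower. The G-box stood in 4 of the 70 lower genes (5.71%) and 1 of the 33 higher ones, against 7.26% of all members and 10.7% of those called lower. The telobox stood in 3 of the 33 higher genes (9.09%) and 1 of the 70 lower ones. It stood in 2.13% of all members, 3.95% of those called higher and 0.946% of those called lower. The W-box was found in 4.29% of the lower and 18.2% of the higher selected genes. Its share was 11.9% of all members, 9.65% of those called lower and 11.7% of those called higher. The evening element was found in 2 of the lower (2.86%) and 0 of the higher genes, against 2.58% of all members. The ABRE was found in 1 of each, against 4.17% of all members, and G-box and ABRE can overlap. These are counts of letters in a window, and no test was made of them.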

How the data were processed

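Total RNA of dko and wild-type seedlings, and of dko and wild-type rosettes, was depleted of ribosomal RNA and sequenced as stranded libraries, per the labels' protocols. The submitters' processing notes name the build TAIR10 and the tools Bowtie2 2.2.0, TopHat2 2.2.0, Cufflinks 2.2.0 and Cuffdiff 2.2.0. The authors deposited 1 table per tissue with a pooled FPKM value per group and locus. The log2 fold change, the test statistic (a score), the p-value and the q-value of each locus are the authors' own, per the file headers. They come from Cuffdiff, and the q-value is adjusted over the loci tested in a table. The smallest q-value is 0.000768 in seedlings and 0.000899 in rosettes. The tables were normalised separately, so levels are compared within a tissue. Of per-sample columns, 0 were left out.

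Ratios were computed from FPKM with a pseudocount of 1, using Python 3.11.15, pandas 2.3.3, numpy 2.4.6 and matplotlib 3.10.9. Calls are q-values at or under 0.05 of members that the authors tested. Rosette counts of calls per list or family instead cover all its loci tested in rosettes, also those under 1 FPKM in seedlings. Rosette medians per list or family cover members only, so these counts and medians can rest on different genes. With no replicate values, no test of difference could be added, and the scripts were tested on simulated data. Sequences and product names come from the RefSeq annotation of TAIR10.1, which held 31510 of the 34133 loci. Coordinates outside the sequence windows are those of the tables, counted from 1.

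The genes described and the gene lists were chosen with earlier results of these data known. The text names TRIC1 and TRIC2, the 12 highest and 12 lowest tested selected genes, the 10 highest and 10 lowest calls, up to 4 calls per list or family with the largest ratios, selected members of lists, the 3 genes on each side of each limit, and up to 5 genes called in opposite directions. Other genes, such as EXL1, AT3G09870, AT1G72430, PIP2;5, CBF2, CBF3, GRP4 and the members of the SAUR19 to SAUR24 cluster, were chosen after their values were seen. Alternatives were another pseudocount, other limits, a stricter q-value, recentring and filters on level, span and test status.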

Additional observations from a re-analysis of the deposited data

Results flagged for a closer look

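Of the 121 members called in both tables with opposite directions, the 5 with the largest ratios, ranked by the smaller of both, are given here. The ratios, dko over wild type on the log2(FPKM + 1) scale, were -1.80 in seedlings and 3.79 in rosettes for PDF1.2, -1.76 and 5.90 for PDF1.3, and -1.47 and 4.25 for PDF1.2c. For DIN6 they were -3.14 in seedlings and 1.21 in rosettes, and for AT4G12490 -1.10 and 2.29. The median ratio of the dark and sugar starvation list was -0.47 in seedlings and 0.23 in rosettes. With 1 pooled value per group, none of these differences between tissues was tested.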

How the results depend on the processing

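No paired analysis was possible because the tables hold 1 pooled value per group, and leaving out single replicates was not run for the same reason. Calls in seedlings numbered 983 higher and 1051 lower at q 0.01, and 249 and 393 where a ratio of 0.8 in size was also required. The 192 selected genes became 116 with a limit of 1 in seedlings, 82 with at least 1 FPKM in rosettes, 107 with a level of 5 FPKM, 104 with a call in seedlings and 84 with a test in both tissues. The 72 higher ones became 45, 24, 41, 33 and 26 in the same order, and the 120 lower ones 71, 58, 66, 71 and 58. Leaving out spans under 300 bp, an alternative chosen after seeing the data, left 47 higher ones. The 82 selected genes with 1 FPKM or more in rosettes became 141 with a pseudocount of 0.1, 37 with a limit of 1 in seedlings and 51 with a rosette limit of 0.2. At q 0.01 in both tissues, also chosen after seeing the data, 644 members passed in the same direction and 44 in opposite directions. With ratios recentred on the median of all members, the glucosinolate median was -0.0034 in place of 0.0053. Of 78 alternatives of the main counts and medians, 25 moved past the limit set for a change. With a pseudocount of 0.1 the selected genes numbered 265, of which 144 were among the 192. Of 172 counts of calls per list or family and direction at q 0.01 or 0.1, 30 moved by over 1.5 times, most of them counts of 3 or fewer. At q 0.01 the larger of these were aminoacyl-tRNA synthetases, 8 higher in place of 20, and mitochondrial protein import, 5 higher in place of 10. NAC factors had 5 lower in place of 8, and clock and flowering 4 lower in place of 7. There bHLH factors had 3 higher in place of 6. At q 0.1 the larger ones were nitrate and ammonium genes, 11 lower in place of 7, and bHLH factors, 10 higher in place of 6. WRKY factors had 8 lower in place of 3. At q 0.01, 21 of 197 named genes lost their call. Depth is unknown, so no counting interval can be given for low values.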
